A study of Mus musculus with 22 samples.

Results

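Chil3, Retnla, Mrc1, Il4ra, Mgl2, Ccl17, Ccl22, Ccl24 and Pdcd1lg2 are genes of alternative macrophage activation and type 2 immunity. They were chosen as a list by gene symbol, and all 9 were found among the 31116 genes that the monocyte and the macrophage count tables share. Interleukin-4 and interleukin-13 bind receptors that contain the Il4ra chain, and the transcription factor Stat6 carries the signal to the nucleus. Its known targets include secreted lectin-like and resistin-like proteins (Chil3, Retnla), sugar-binding surface receptors (Mrc1, Mgl2), chemokines for T cells and eosinophils (Ccl17, Ccl22, Ccl24) and a ligand of the inhibitory receptor PD-1 (Pdcd1lg2). Resident alveolar macrophages express part of this set at rest, Chil3 and Mrc1 above all.

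The study followed lung injury in mice that express a mutant surfactant protein C, SP-C I73T, from its own gene in alveolar type 2 cells. The adult animals were labelled C57BL/6 and, controls included, carried the mutant allele with a neomycin cassette that keeps its expression low. Oral tamoxifen activates a Flp recombinase placed in the Rosa26 locus, which removes the cassette and raises the mutant protein. Ly6Chi monocytes (CD11b+) and alveolar macrophages (SigF+CD11b-) were sorted from digested, lavaged lungs, and their polyadenylated RNA was sequenced. There were 4 control, 4 3 d and 4 14 d samples of monocytes, and 4 control, 3 3 d and 3 14 d samples of macrophages. Controls are labelled untreated, whereas the paper calls those of the sequenced monocytes mutant mice that were given oil, and its methods pool such mice with others given tamoxifen without carrying the recombinase. For the control macrophages only the label was used. Nothing states that replicates are separate animals, so the p-values measure only the spread between samples.

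Levels are given as CPM, read counts of a gene relative to the total of its library after scaling by the trimmed mean of M values (TMM). They are listed in the order of replicates 1 to 4, or 1 to 3 for macrophages at 3 d and 14 d. Each difference was tested with edgeR over all genes of the table. A gene is called, and said to have risen or fallen, where its Benjamini-Hochberg adjusted p was under 0.05 and its fold change over 1.5. Values written with ± are log2 fold changes with their standard error, unless another unit is named. Total counts were 22135815 to 28789639 in control monocytes, 15451460 to 20036958 at 3 d and 21131493 to 27013525 at 14 d. In macrophages they were 14437070 to 17074863, 10692871 to 15410838 and 4610720 to 6838893, so the 14 d macrophage libraries were the shallowest. A floor of 3 counts is 0.121 to 0.161 CPM in control monocytes, and 0.378 to 0.507 CPM in the shallow 14 d macrophage libraries. Floors and counting intervals cover counting error only. In bulk samples, more cells that express a gene and more RNA of it per cell cannot be told apart.

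Before any member was compared, the 3 d monocyte and the 14 d macrophage libraries stood apart. Olfactory receptor genes, which neither cell type is known for, summed to 19.9 to 138 CPM in control monocytes, 503 to 829 at 3 d and 18.9 to 154 at 14 d. In macrophages the sum was 12.5 to 103 CPM in controls, 15.3 to 71.5 at 3 d and 332 to 693 at 14 d, and its part in results for genes near 1 CPM was not tested. Counts outside protein-coding genes were 3.13 to 3.73% in control and 6.56 to 9.11% in 3 d monocytes, and 3.82 to 4.48% in control and 5.99 to 7.63% in 14 d macrophages. Mitochondrial counts were 0.969 to 1.41% in control and 2.10 to 3.62% in 3 d monocytes, and in macrophages 1.76 to 2.05% in controls, 2.67 to 3.30% at 3 d, when Ccl17 rose, and 2.33 to 3.95% at 14 d, and their part in the members' results was not tested. The zero point of these comparisons also depended on the scaling. At 3 d in monocytes the median log2 fold change of all genes was 0.22 with TMM, 0.70 with library size scaling and 0.74 with TMM factors from well-expressed genes, and 71.8%, 95.1% and 95.8% of calls were higher. For macrophages at 14 d the medians were 0.18, 0.61 and 0.73, with 63.3%, 84.5% and 89.0% of calls higher. Sex differed between groups as well: at 14 d the Y chromosome genes reached a sum of 94.0 to 122 CPM (monocytes) and 73.2 to 122 CPM (macrophages), and no library of another group exceeded 0.233 CPM. The 14 d time point and male sex therefore cannot be told apart.

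Control macrophages were compared with control monocytes to check the sort labels and to see where each member is expressed at rest. Each cell type has its own count table, so cell type cannot be told apart from anything else that differs between the tables. All 12 alveolar macrophage markers, such as Siglecf and Marco, were higher in control macrophages (median log2 fold change 3.89), and all 9 Ly6Chi monocyte markers, such as Ly6c2 and Ccr2, were lower (median -6.92). Of the 9 members, 4 were called higher and 3 lower, where 24.5% of all genes tested were called higher and 19.7% lower. The members' median was 0.85, beside 0.05 over all genes. Higher in macrophages were Mrc1 (4.75 ± 0.60, adjusted p = 2.93e-06), Ccl22 (2.89 ± 0.67, adjusted p = 0.00150), Chil3 (0.85 ± 0.25, adjusted p = 0.00799) and Pdcd1lg2 (3.04-fold, adjusted p = 0.0235). Lower were Ccl24 (-7.66 ± 1.79, adjusted p = 0.00185), Retnla (-4.86 ± 1.41, adjusted p = 0.00890) and Mgl2 (-4.22 ± 0.96, adjusted p = 0.00142). The Pdcd1lg2 call was lost without monocyte control replicates 1, 3 or 4 or macrophage control replicates 1 or 3 (adjusted p from 0.0504 to 0.0599). Without monocyte control replicate 4 the Retnla value was -3.73, and without monocyte control replicate 2 the Ccl24 value was -6.25.

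Per kilobase of exon, Chil3 had the highest level of the 9 members in every group. In control macrophages its mean was 14586 ± 1169 CPM per kb (SD, n = 4), and Mrc1 came next at 251 ± 28.5. Il4ra, Ccl17, Ccl22, Pdcd1lg2, Retnla, Mgl2 and Ccl24 (0.0957 ± 0.0833 CPM per kb, SD) followed in that order. Sample ranges overlapped between Il4ra and Ccl17 and between each neighbour from Retnla down to Ccl24, and not between the other neighbours. In control monocytes Chil3 (6307 ± 2064 CPM per kb, SD, n = 4) stood above Il4ra (31.5 ± 10.2), and from Il4ra down every neighbour overlapped with the next except Mgl2 and Ccl22. At 14 d in monocytes Ccl24 (1544 ± 691 CPM per kb, SD, n = 4) came next after Chil3 (11419.7 ± 1423), without overlap with Chil3 or Retnla. Retnla, Ccl17, Il4ra, Mrc1, Mgl2, Pdcd1lg2 and Ccl22 followed, with overlap between all neighbours except Il4ra and Mrc1, and Pdcd1lg2 and Ccl22. At 14 d in macrophages Retnla (316 ± 218 CPM per kb, SD, n = 3) came after Chil3 (13598 ± 1817), and overlapped with Ccl17 (89.8 ± 36.5) and Mrc1 (81.0 ± 18.5).

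**Figure D1:**
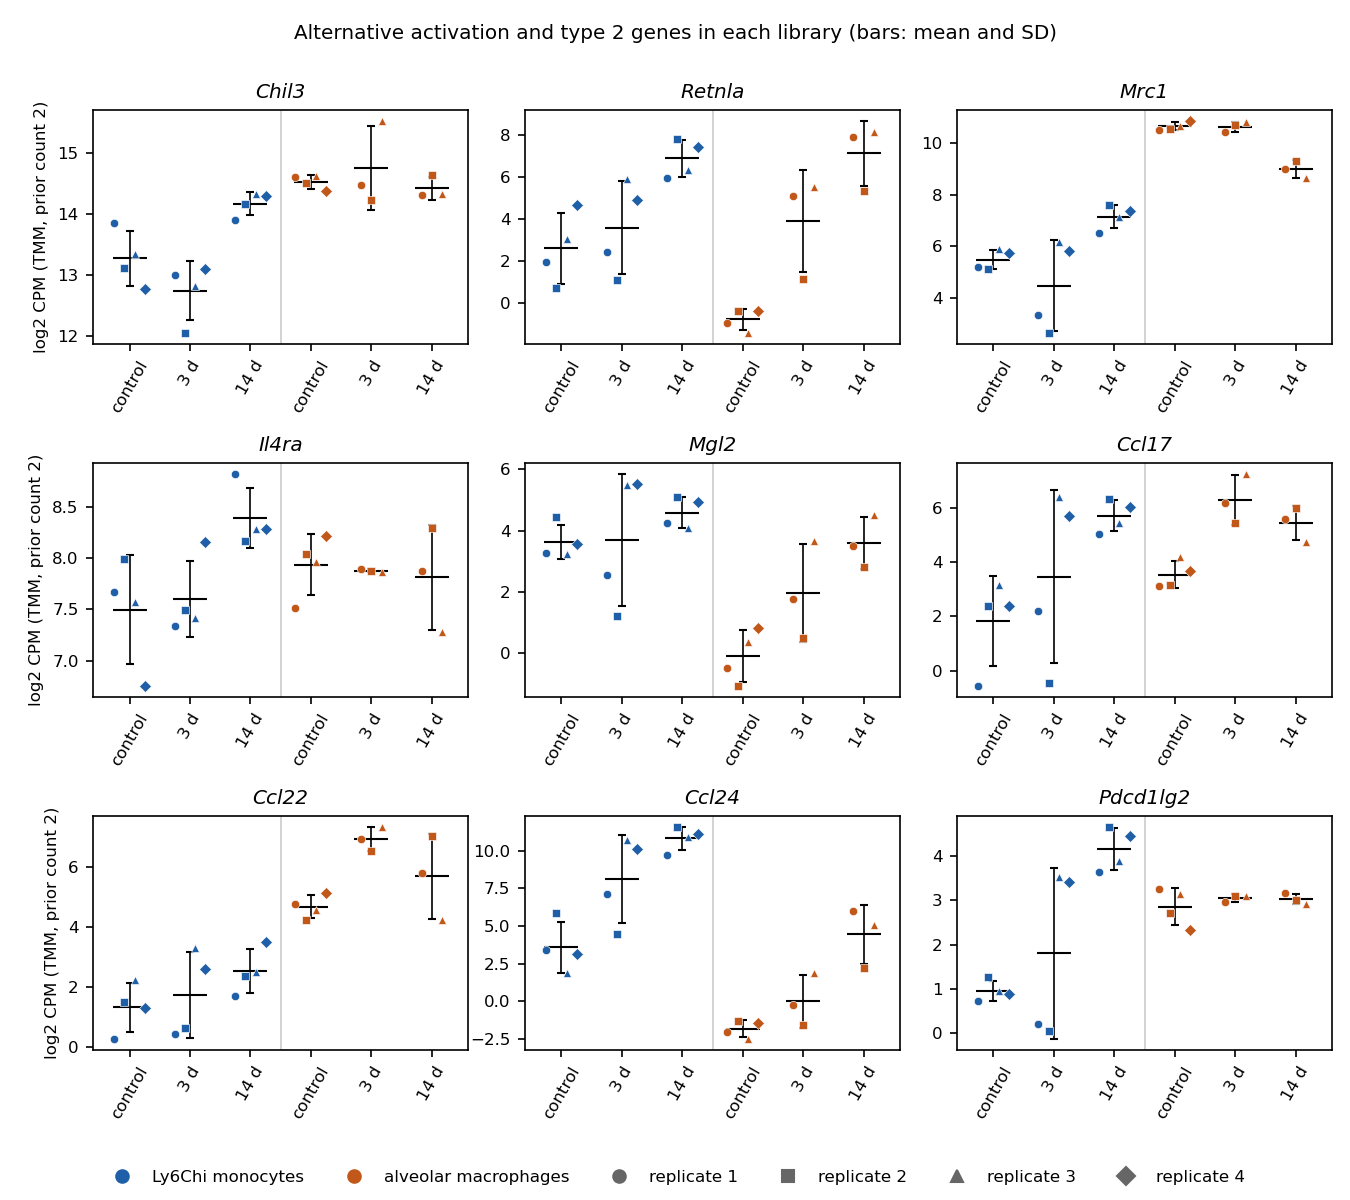
Level of each of the 9 members in each of the 22 libraries, as log2 CPM (TMM scaling, prior count 2), with the mean and SD of each group as black bars. Ccl24 was higher in all 4 monocyte libraries at 14 d than in any control monocyte library, and Mrc1 was lower in all 3 macrophage libraries at 14 d than in any control macrophage library.

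Each cell type at 3 d and at 14 d was compared with its own controls, to see which members moved at each time after induction. In monocytes Ccl24 rose at 3 d, and Chil3, Il4ra, Ccl24 and Pdcd1lg2 at 14 d. In macrophages Ccl17 rose at 3 d, and at 14 d Retnla, Mgl2, Ccl17 and Ccl24 rose while Mrc1 fell. The 3 d and 14 d comparisons of a cell type share their control libraries.

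In monocytes at 3 d 1 of 9 members rose, where 36.8% of all genes tested were called higher and 14.4% lower. By edgeR the members' share lay under that of all genes. With DESeq2 and with each of the other scalings 3 members were called. The share of all genes called there is not given, and the other scalings also raised the median of all genes. The median log2 fold change of the members was 0.91, beside 0.22 over all genes, and no member separated all 3 d libraries from all controls. At 14 d 4 of 9 members rose in monocytes, where 3.22% of genes were called higher and 5.34% lower, with a median of 1.68 beside 0.09. All 4 libraries at 14 d lay above all 4 controls for 7 members, the exceptions being Mgl2 and Ccl22. No share over all genes is given beside this count, so it has no background to be read against. In macrophages at 3 d 1 of 9 members rose, where 1.05% of genes were called higher and 0.224% lower, with a median of 2.26 beside -0.01. At 14 d 4 of 9 members rose and 1 fell in macrophages, where 39.4% of genes were called higher and 22.9% lower, with a median of 1.40 beside 0.18. Leaving out 1 library changed these counts. In monocytes at 3 d Chil3 was called lower beside the 1 member that rose without control replicate 2 or 4 or 3 d replicate 4, and 3 members were called higher without 3 d replicate 1 or 2. The monocyte count at 14 d became 3 without control replicate 2, 3 d replicate 1 or 14 d replicate 1, 2 without control replicate 1 or 3, 3 d replicate 3 or 14 d replicate 2, 3 or 4, 1 without control replicate 4, and 6 without 3 d replicate 2, where Retnla, Mrc1 and Ccl17 were called and Il4ra was not. The macrophage count at 3 d became 0 without control replicate 1, 2 or 4, 3 d replicate 1 or 3, or 14 d replicate 1. It became 2 without 14 d replicate 2 or 3, and 3 without 3 d replicate 2. At 14 d 5 members rose and 1 fell in macrophages without 14 d replicate 3, where Ccl22 was called higher.

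**Figure D2:**
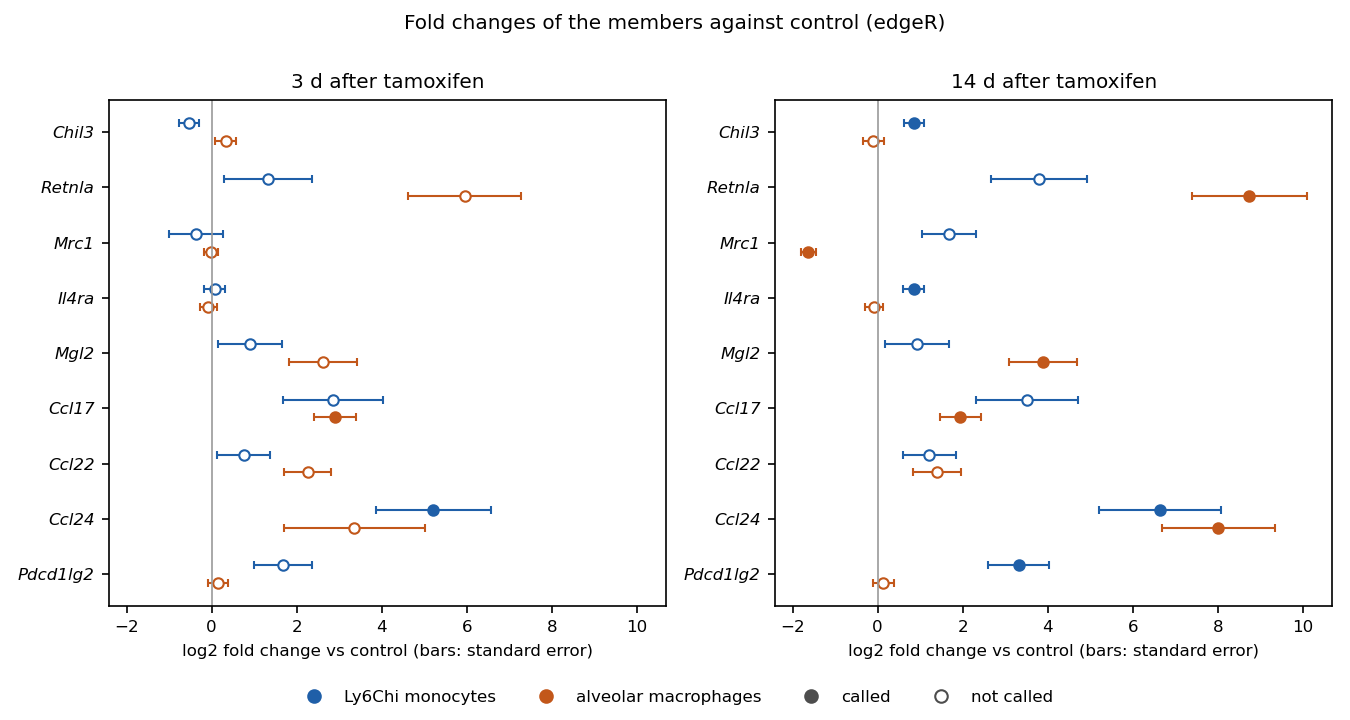
Log2 fold change of each member against the control group (edgeR), with its standard error as a bar, at 3 d and at 14 d in both cell types, where filled circles mark called members. Ccl24 rose in both cell types at 14 d (6.63 in monocytes and 8.01 in macrophages), and Mrc1 fell in macrophages (-1.63).

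Il4ra (ENSMUSG00000030748, chr7:125552120-125579474, GRCm38) encodes the receptor chain shared by interleukin-4 and interleukin-13. It rose in monocytes at 14 d, by a small margin, and was not called in macrophages. Monocytes measured 204, 255, 191 and 108 CPM in the controls, 162, 179.8, 171 and 285 at 3 d and 453, 288, 311 and 311 at 14 d. Every 14 d monocyte library was above every control, with 14 d replicate 1 highest, and 3 d replicate 4 alone of its group lay above the control range. The 14 d change was 1.80-fold (0.85 ± 0.25, adjusted p = 0.0497), and the 3 d value was 0.08 ± 0.25 (adjusted p = 0.813). The 14 d call was lost without control replicates 1, 3 or 4, 3 d replicates 1, 2 or 3 or 14 d replicates 1, 2, 3 or 4 (adjusted p from 0.0707 to 0.138). It was also lost with every gene kept (adjusted p = 0.141) and in a fit of only the groups compared (adjusted p = 0.0665), which was added after the data had been seen. Macrophages measured 183, 264, 249 and 297 CPM in the controls, 237, 234 and 233 at 3 d and 234, 312 and 155 at 14 d. These groups overlapped, and Il4ra was not called at 3 d (-0.08 ± 0.20, adjusted p = 0.898) or at 14 d (-0.09 ± 0.20, adjusted p = 0.713). At 14 d the other scalings gave 0.34 and 0.45, opposite in sign and not called. The annotated exons of Il4ra share 571 bases with Gm44876 on the other strand, and the strandedness of the counting is not stated.

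Other genes of interleukin-4 and interleukin-13 signalling were read as a list of 14, without a test of the group. In monocytes at 3 d 2 of 12 tested rose and 6 fell (median -0.49, all genes 0.22). At 14 d 1 of 12 tested rose and 3 fell (median -0.08, all genes 0.09), medians being log2 fold changes. Of all genes in monocytes, 36.8% were called higher and 14.4% lower at 3 d, and 3.22% and 5.34% at 14 d. In macrophages at 3 d 1 of 13 tested rose (median 0.32, all genes -0.01). There 5 were higher and 1 lower at an unadjusted p under 0.05, and DESeq2 called 4 higher and 0 lower. At 14 d 4 of 13 tested rose and 5 fell (median -0.27, all genes 0.18). Of all genes in macrophages, 1.05% were called higher and 0.224% lower at 3 d, and 39.4% and 22.9% at 14 d. With the other scalings the 3 d monocyte median was 0.01 and 0.03 and the 14 d macrophage median 0.17 and 0.28. Stat6, which acts below Il4ra, fell in monocytes at 3 d (-0.84 ± 0.20, adjusted p = 0.00384) and 14 d (-0.74 ± 0.20, adjusted p = 0.0318) and in macrophages at 14 d (-1.12 ± 0.16, adjusted p = 3.08e-05). Il4, a ligand of Il4ra, measured 0.411, 0.456, 0.524 and 0.398 CPM in control macrophages, 2.22, 1.40 and 2.61 at 3 d and 10.8, 1.89 and 7.44 at 14 d. Il4 was above all controls in all 14 d macrophage libraries, with replicate 2 lowest, and rose (3.87 ± 0.52, adjusted p = 2.24e-05). It also rose in 3 d monocytes (2.03 ± 0.74, adjusted p = 0.0317), and was not called in 14 d monocytes (0.29 ± 0.77, adjusted p = 0.869). The 14 d macrophages and the 3 d monocytes had raised olfactory receptor sums, whose part in these values was not tested. Il1rl1, the receptor of the alarmin interleukin-33, measured 0.685, 0.456, 1.25 and 0.730 CPM in control macrophages, 6.09, 2.33 and 6.78 at 3 d and 15.8, 9.70 and 15.0 at 14 d. Each 3 d and each 14 d macrophage library was above each control for Il1rl1, which rose at 3 d (2.66 ± 0.40, adjusted p = 0.00434) and at 14 d (4.08 ± 0.40, adjusted p = 1.85e-06). Il1rl1 rose in 3 d monocytes too (2.00 ± 0.49, adjusted p = 0.00464), and was not called in 14 d monocytes (1.44 ± 0.49, adjusted p = 0.0886). Over the 6 alarmins and alarmin receptors, in macrophages at 3 d 1 of 5 tested rose (median 0.64, all genes -0.01) and at 14 d 4 of 5 tested rose (median 3.84, all genes 0.18). In monocytes at 3 d 3 of 6 tested rose (median 1.88, all genes 0.22), and at 14 d edgeR called 0 of 6 (1 at an unadjusted p under 0.05, 1 called by DESeq2, median 0.18, all genes 0.09).

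Chil3 (ENSMUSG00000040809, chr3:106147554-106167564), also called Ym1, is a secreted chitinase-like protein. It took 1.90 to 2.36% of all counts in control macrophages, 1.84 to 4.27% at 3 d and 2.51 to 2.97% at 14 d, above all controls at 14 d, was not called there, and rose in monocytes at 14 d. Monocytes measured 14903, 8848, 10402 and 7022 CPM in the controls, 8253, 4235, 7269 and 8781 at 3 d and 15429.9, 18455, 20582 and 20081 at 14 d. All 14 d monocyte libraries exceeded all controls and all 3 d libraries, and 3 d replicate 2 was the lowest of the 12. Chil3 rose at 14 d by 1.81-fold (0.86 ± 0.24, adjusted p = 0.0357). That call was lost without control replicates 2, 3 or 4, 3 d replicate 3 or 14 d replicates 2, 3 or 4 (adjusted p from 0.0512 to 0.107) and with every gene kept (adjusted p = 0.200). The 3 d value was -0.53 ± 0.24 (adjusted p = 0.0684), or 0.00 with TMM from well-expressed genes. It was called lower at 3 d without control replicates 2 or 4 or 3 d replicate 4 (adjusted p from 0.0256 to 0.0462) and with every gene kept (adjusted p = 0.0328). Macrophages measured 25176, 23426, 25355 and 21257 CPM in the controls, 22901, 19381 and 47631 at 3 d and 20319.6, 25611 and 20644 at 14 d. On this scale, after TMM, the groups overlapped, with 3 d replicate 3 above all others, and Chil3 was not called at 3 d (0.33 ± 0.24, adjusted p = 0.573) or at 14 d (-0.10 ± 0.24, adjusted p = 0.722). At 14 d the other scalings gave 0.33 and 0.45, opposite in sign and not called. Reads of Chil3 and of its close paralog Chil4 may be assigned to either gene, and Chil4 rose in 14 d monocytes too (1.07 ± 0.31, adjusted p = 0.0466).

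Retnla (ENSMUSG00000061100, chr16:48842551-48844461) encodes a secreted resistin-like molecule, also called Fizz1. It had a few counts in control macrophages, and at 14 d its mean per kilobase there was second only to that of Chil3. Its range overlapped with those of Ccl17 and Mrc1. Macrophages measured 0.342, 0.608, 0.197 and 0.598 CPM in the controls, 33.8, 2.02 and 46.6 at 3 d and 242, 40.2 and 285 at 14 d. No 3 d or 14 d macrophage library overlapped with the controls, and replicate 2 was the lowest of its group at both times. The control libraries held only 5, 8, 3 and 9 counts, and the pooled ratio to them was 60.2 (95% counting interval 40.5 to 93.5) at 3 d and 412 (95% counting interval 278 to 637) at 14 d. Retnla rose in macrophages at 14 d (8.74 ± 1.35, adjusted p = 0.000843), or by 9.34 with TMM from well-expressed genes. At 3 d it was not called by edgeR (5.95 ± 1.34, adjusted p = 0.0975), but was by DESeq2 (adjusted p = 1.67e-06) and, at 6.54, without 3 d replicate 2 (adjusted p = 0.0139). Monocytes measured 3.81, 1.56, 8.20 and 25.5 CPM in the controls, 5.32, 2.02, 61.1 and 30.3 at 3 d and 62.0, 229, 80.9 and 174 at 14 d. Every 14 d monocyte library was above every control, and 3 d replicates 3 and 4 were above the control range. Retnla was not called in monocytes at 3 d (1.33 ± 1.03, adjusted p = 0.294) or at 14 d (3.80 ± 1.13, adjusted p = 0.0635). Without control replicate 4, the highest control, the values were 2.43 and 4.89, and without 3 d replicate 3 the 3 d value was 0.43, none of them called. At 14 d DESeq2 (adjusted p = 0.00216), a stricter filter on low counts (adjusted p = 0.0276), the fit of only the groups compared (adjusted p = 0.00901) and the fit without 3 d replicate 2 (adjusted p = 0.0360) did call it.

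Mrc1 (ENSMUSG00000026712, chr2:14229392-14332057), the mannose receptor CD206, was the 1 member that fell. It fell in macrophages at 14 d, whereas in monocytes its 14 d libraries were above the controls. Macrophages measured 1445, 1492, 1607 and 1852 CPM in the controls, 1359, 1646 and 1763 at 3 d and 511, 637 and 401 at 14 d. All 14 d macrophage libraries were below all others, and of the 3 d libraries only replicate 1 lay outside the control range, below it. Mrc1 fell by 1.63 on the log2 scale at 14 d (SE 0.18, adjusted p = 3.63e-06), and its 3 d value was -0.01 ± 0.17 (adjusted p = 0.991). Monocytes measured 36.9, 35.1, 59.4 and 53.1 CPM in the controls, 10.04, 6.20, 71.2 and 55.8 at 3 d and 92.0, 194, 139 and 165 at 14 d. The 14 d monocyte libraries were above every control, and at 3 d replicates 1 and 2 were below every control and replicate 3 above every control. Mrc1 was not called in monocytes at 14 d by edgeR (1.68 ± 0.64, adjusted p = 0.143). It was called there by DESeq2 (adjusted p = 0.0244), in the fit of only the groups compared (adjusted p = 0.00144) and without 3 d replicate 2 (adjusted p = 0.0434). At 3 d the monocyte value of -0.37 ± 0.63 changed sign with the other scalings (0.12 and 0.17) and was not called with any of the 3.

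Mgl2 (ENSMUSG00000040950, chr11:70130329-70137550), or CD301b, is a galactose-binding lectin of dendritic cells and macrophages. It rose in macrophages at 14 d and was not called in monocytes. Macrophages measured 0.548, 0.304, 1.11 and 1.59 CPM in the controls, 3.22, 1.24 and 12.6 at 3 d and 11.1, 6.81 and 22.7 at 14 d. Every 14 d macrophage library was above every control, while 3 d replicate 2 lay within the control range and 3 d replicate 3 was highest of its group. Mgl2 rose at 14 d by 14.7-fold (3.88 ± 0.80, adjusted p = 0.00157). Without 14 d replicate 3 the value was 3.23, and with TMM from well-expressed genes it was 4.49. At 3 d it was not called by edgeR (2.62 ± 0.79, adjusted p = 0.161), but was by DESeq2 (adjusted p = 0.0412) and without 3 d replicate 2 (adjusted p = 0.0249). Without 3 d replicate 3 the 3 d value was 1.33 (adjusted p = 0.667). Monocytes measured 9.61, 21.9, 9.41 and 11.8 CPM in the controls, 5.85, 2.25, 44.8 and 46.4 at 3 d and 19.0, 34.2, 16.9 and 30.6 at 14 d. At 3 d replicates 1 and 2 were below every control and replicates 3 and 4 above every control, and at 14 d the groups overlapped. Neither time was called for Mgl2 in monocytes, at 0.91 ± 0.75 (adjusted p = 0.320) and 0.93 ± 0.75 (adjusted p = 0.516).

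Ccl17 (ENSMUSG00000031780, chr8:94810453-94812036) and Ccl22 (ENSMUSG00000031779, chr8:94745590-94751699) encode ligands of Ccr4, a receptor of type 2 helper and regulatory T cells. Their genes are neighbours, 58753 bases apart with Cx3cl1 between them. In macrophages Ccl17 was the 1 member called by edgeR at 3 d, where DESeq2 called 4, and Ccl22 was not called by edgeR at either time. Ccl17 measured 8.49, 8.82, 18.0 and 12.6 CPM in the controls, 72.9, 43.0 and 154 at 3 d and 48.0, 63.9 and 26.5 at 14 d in macrophages. All libraries of both time points were above all controls for Ccl17, with 3 d replicate 3 highest. It rose by 7.47-fold at 3 d (2.90 ± 0.48, adjusted p = 0.0296) and by 3.86-fold at 14 d (1.95 ± 0.48, adjusted p = 0.00597). The 3 d call was lost without control replicates 1, 2 or 4, 3 d replicates 1 or 3 or 14 d replicate 1 (adjusted p from 0.0508 to 0.125) and with every gene kept (adjusted p = 0.0546). Without 3 d replicate 3 the 3 d value was 2.30. Ccl22 measured 27.1, 18.5, 23.5 and 34.6 CPM in the controls, 120.5, 90.9 and 161 at 3 d and 54.7, 131 and 18.4 at 14 d in macrophages. Its 3 d libraries were all above the controls, while at 14 d replicate 2 was at the 3 d level and replicate 3 below every control. edgeR called Ccl22 neither at 3 d (2.26 ± 0.56, adjusted p = 0.113) nor at 14 d (1.40 ± 0.56, adjusted p = 0.0522). At 3 d it was called by DESeq2 (adjusted p = 0.00246), with the stricter filter (adjusted p = 0.0404), in the fit of only the groups compared (adjusted p = 0.00451) and without 14 d replicates 2 or 3 (adjusted p from 0.0277 to 0.0315). At 14 d it was called by DESeq2 (adjusted p = 0.0118), with the other scalings (adjusted p = 0.0150 and 0.0102), with the stricter filter (adjusted p = 0.0123) and without 14 d replicate 3 (adjusted p = 0.00494). Without 14 d replicate 2 the 14 d value of Ccl22 was 0.48 (adjusted p = 0.345).

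In monocytes neither Ccl17 nor Ccl22 was called against control. Ccl17 measured 0.580, 5.06, 8.77 and 5.09 CPM in the controls, 4.55, 0.629, 83.7 and 52.6 at 3 d and 33.2, 79.7, 43.7 and 64.6 at 14 d. The 14 d libraries were above every control for Ccl17, and at 3 d replicates 3 and 4 were high while replicates 1 and 2 stayed within the control range. The values were 2.86 ± 1.17 at 3 d (adjusted p = 0.0572) and 3.50 ± 1.20 at 14 d (adjusted p = 0.106). At 3 d Ccl17 was called by DESeq2 (adjusted p = 0.0130), with the other scalings (adjusted p = 0.0363 and 0.0355) and without 3 d replicates 1 or 2 (adjusted p from 0.0117 to 0.0362). At 14 d it was called by DESeq2 (adjusted p = 0.0138), in the fit of only the groups compared (adjusted p = 0.00390) and without 3 d replicate 2 (adjusted p = 0.0300). Ccl22 stayed low, at 1.12, 2.74, 4.66 and 2.36 CPM in the controls, 1.259, 1.48, 9.78 and 5.93 at 3 d and 3.20, 5.13, 5.59 and 11.3 at 14 d. Its groups overlapped, with values of 0.75 ± 0.62 at 3 d (adjusted p = 0.318) and 1.21 ± 0.63 at 14 d (adjusted p = 0.277). Without 3 d replicate 3 the 3 d values were 2.07 for Ccl17 and 0.17 for Ccl22.

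Ccl24 (ENSMUSG00000004814, chr5:135569937-135573049), or eotaxin-2, attracts eosinophils through Ccr3. In monocytes it rose at 3 d and at 14 d, and in macrophages at 14 d. Monocytes measured 10.7, 58.1, 3.50 and 8.75 CPM in the controls, 142, 21.5, 1697 and 1138 at 3 d and 843, 3007, 1941 and 2206 at 14 d. All 14 d libraries were above all controls, 3 d replicates 3 and 4 were already within the 14 d range, and 3 d replicate 2 was within the control range, whose highest library was replicate 2. Ccl24 rose by 37.1-fold at 3 d (5.21 ± 1.34, adjusted p = 0.00824) and by 99.1-fold at 14 d (6.63 ± 1.43, adjusted p = 0.0148) in monocytes. The 14 d call was lost without control replicates 1 or 4 (adjusted p from 0.0641 to 0.0703) and with every gene kept (adjusted p = 0.0536). Without control replicate 2 the values were 6.57 at 3 d and 8.03 at 14 d, and without 3 d replicate 3 the 3 d value was 4.50. Control macrophages held 1, 3, 0 and 3 counts of Ccl24, at or under the floor, against 0.645, 0.155 and 3.55 CPM at 3 d and 64.8, 4.54 and 32.8 CPM at 14 d. Each 14 d macrophage library was above each control, replicate 2 being the lowest, while 3 d replicate 2 lay among the controls. The pooled ratio to control macrophages was 10.2 (95% counting interval 4.59 to 26.9) at 3 d and 271 (95% counting interval 131 to 677) at 14 d. edgeR called Ccl24 in macrophages at 14 d (8.01 ± 1.33, adjusted p = 0.000897) and not at 3 d (3.35 ± 1.66, adjusted p = 0.422). Without 14 d replicate 1 the 14 d value was 7.09. The 3 d macrophage libraries held 9, 2 and 34 counts of Ccl24, and the 3 d value was 1.69 without replicate 3 and 3.95 without replicate 2.

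Pdcd1lg2 (ENSMUSG00000016498, chr19:29410919-29471161) encodes PD-L2, a ligand of the T cell receptor PD-1. It rose in monocytes at 14 d and was not called in macrophages by edgeR. Monocytes measured 1.57, 2.31, 1.85 and 1.75 CPM in the controls, 1.06, 0.943, 11.5 and 10.6 at 3 d and 12.4, 25.4, 14.8 and 22.01 at 14 d. All 14 d libraries exceeded all controls, and at 3 d replicates 3 and 4 were above and replicates 1 and 2 below the whole control range. Pdcd1lg2 rose by 9.97-fold at 14 d (3.32 ± 0.71, adjusted p = 0.0103), a call that was lost with every gene kept (adjusted p = 0.0660). At 3 d it was not called by edgeR (1.68 ± 0.68, adjusted p = 0.0511). DESeq2 (adjusted p = 0.00944), the other scalings (adjusted p = 0.0184 and 0.0180) and the fit without 3 d replicates 1 or 2 (adjusted p from 0.0102 to 0.0114) called it at 3 d. Macrophages measured 9.38, 6.39, 8.72 and 4.85 CPM in the controls, 7.60, 8.38 and 8.45 at 3 d and 8.79, 7.94 and 7.44 at 14 d. These groups overlapped, with values of 0.15 ± 0.24 at 3 d (adjusted p = 0.836) and 0.14 ± 0.25 at 14 d (adjusted p = 0.642). With TMM from well-expressed genes the 14 d value was 0.69 and called (adjusted p = 0.0271).

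In the 3 d groups single libraries stood out for several members at a time. Monocyte 3 d replicates 3 and 4 were the 2 highest of their group for Retnla, Mrc1, Mgl2, Ccl17, Ccl22, Ccl24 and Pdcd1lg2, and replicate 4 also for Chil3 and Il4ra. Macrophage 3 d replicate 2 was the lowest of its group for Chil3, Retnla, Mgl2, Ccl17, Ccl22 and Ccl24.

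Monocytes at 14 d were compared with monocytes at 3 d to see which members went on moving. Chil3, Mrc1 and Il4ra were higher at 14 d, 3 of 9, where 12% of genes were called higher and 34.5% lower. The members' median was 1.39, beside -0.26 over all genes. Chil3 differed by 1.39 ± 0.24 (adjusted p = 0.00128) and Mrc1 by 2.04 ± 0.65 (adjusted p = 0.0222). Il4ra differed by 0.77 ± 0.25 (adjusted p = 0.0211), and for each of these 3 all 14 d libraries were above all 3 d libraries. With library size scaling, TMM from well-expressed genes and the stricter filter only Chil3 was still called, at 0.99, 0.92 and 1.00. The Mrc1 values there were 1.66, 1.57 and 1.64, and those of Il4ra 0.40, 0.31 and 0.39. The Mrc1 call was lost without 14 d replicate 4 (adjusted p = 0.0592), and the Il4ra call by DESeq2 (adjusted p = 0.0706) and without 3 d replicates 1, 2 or 3 (adjusted p from 0.0735 to 0.0942). Retnla, not called by edgeR (2.47 ± 1.06, adjusted p = 0.0710), was called by DESeq2 (adjusted p = 0.0430) and without 3 d replicate 3 (adjusted p = 0.0442). Pdcd1lg2 (1.63 ± 0.66, adjusted p = 0.0537) was called by DESeq2 (adjusted p = 0.0384) and without 3 d replicates 3 or 4 (adjusted p from 0.0353 to 0.0390). Without 3 d replicate 3 the values were 3.35 for Retnla, 1.42 for Ccl17 (0.65 with it), 1.05 for Ccl22 (0.46) and 2.10 for Ccl24 (1.42).

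In macrophages Retnla and Ccl24 were higher at 14 d than at 3 d and Mrc1 was lower. These are 2 and 1 of 9 members, where 36.3% of genes were called higher and 20.0% lower, with a median of -0.01 beside 0.16. Ccl24 differed by 4.66 ± 1.15 (adjusted p = 0.00834) and Mrc1 by -1.62 ± 0.18 (adjusted p = 2.38e-05), each without overlap between the groups. Retnla overlapped between the times, at 2.79 ± 1.04 (adjusted p = 0.0478). Its call was lost without control replicates 1, 2, 3 or 4, 3 d replicates 1, 2 or 3 or 14 d replicates 1 or 3 (adjusted p from 0.0664 to 0.1203), with every gene kept (adjusted p = 0.0698) and in the fit of only the groups compared (adjusted p = 0.135). Without 3 d replicate 2 the values were 2.02 for Retnla and 3.88 for Ccl24. Without 3 d replicate 3 the Ccl24 value was 6.18, and without 14 d replicate 1 it was 3.71. Chil3 was called lower without 3 d replicates 1 or 2 (adjusted p from 0.00338 to 0.0286) and with every gene kept (adjusted p = 0.0417). Ccl17 was called lower without 3 d replicate 2 (adjusted p = 0.0290) and Ccl22 lower without 14 d replicate 2 (adjusted p = 0.0127). Ccl22 was at -1.78 without 14 d replicate 2, against -0.86 with it. Mgl2 (1.27 ± 0.77, adjusted p = 0.175) was called higher without 3 d replicate 3 (adjusted p = 0.00658), and was at 0.57 without 3 d replicate 2, 2.40 without 3 d replicate 3 and 0.62 without 14 d replicate 3.

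Whether a member moved differently in monocytes and macrophages was tested as the macrophage change minus the monocyte change, in 1 fit over all 22 libraries. At 14 d Mrc1, Pdcd1lg2, Chil3 and Il4ra were lower in that difference, 4 of 9, where 16.9% of genes were called higher and 19.9% lower. The members' median was -1.30, beside 0.48 over all genes. Mrc1, which fell in macrophages only, differed by -3.66 ± 0.79 (adjusted p = 0.00213). Pdcd1lg2 differed by -3.52 ± 0.83 (adjusted p = 0.00296), Chil3 by -1.31 ± 0.37 (adjusted p = 0.00982) and Il4ra by -1.30 ± 0.35 (adjusted p = 0.00586), and these 3 rose in monocytes only. For Mrc1 the call held with library size scaling (-2.98), with TMM from well-expressed genes (-2.87) and with the stricter filter (-3.06). For Pdcd1lg2 it held with the same alternatives, at -2.86, -2.74 and -2.93. The Chil3 call was lost with all 3 of them (-0.64, -0.52 and -0.70) and with DESeq2 (-0.87). The Il4ra call was lost with the same 4, at -0.64, -0.52, -0.70 and -0.88. Retnla (4.65 ± 1.78, adjusted p = 0.0501) missed the threshold. It was called higher by DESeq2 (adjusted p = 0.00324), with the other scalings (adjusted p = 0.0320 and 0.0286), with the stricter filter (adjusted p = 0.0199) and in the fit of only the groups compared (adjusted p = 0.0216). Retnla was also called without monocyte control replicate 2, monocyte 3 d replicates 1, 2 or 3, monocyte 14 d replicate 2, macrophage 3 d replicate 2 or macrophage 14 d replicate 2 (adjusted p from 0.0361 to 0.0476), and its value was 3.51 without monocyte control replicate 4. Mgl2 (2.61, adjusted p = 0.111) was called higher by DESeq2 (adjusted p = 0.0273), with TMM from well-expressed genes (adjusted p = 0.0448), with the stricter filter (adjusted p = 0.0369) and in the fit of only the groups compared (adjusted p = 0.00586). Ccl24 was not called (1.09 ± 2.45, adjusted p = 0.752), with -0.31 without monocyte control replicate 2 and 0.20 without macrophage 14 d replicate 1. At 3 d edgeR called 0 of 9 members, where 3.51% of genes were called higher and 15.2% lower. Retnla and Pdcd1lg2, 2 of the 9, were at an unadjusted p under 0.05, and DESeq2 called 1, Retnla (adjusted p = 0.0149). The 3 d median was 0.18 beside -0.63, and Pdcd1lg2 was called lower without monocyte 3 d replicates 1 or 2 (adjusted p from 0.0327 to 0.0394).

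Receptors of the member ligands and their partners, a list of 6, were read in the same libraries. Ccr3, the receptor of Ccl24, measured 0.137, 0, 0.328 and 0.133 CPM in control macrophages, 0.573, 0 and 1.25 at 3 d and 16.1, 4.91 and 18.1 at 14 d, and rose at 14 d (6.30 ± 0.80, adjusted p = 3.15e-05). Cd274, which binds PD-1 as Pdcd1lg2 does, was at 169.9, 189, 139.9 and 140.3 CPM in control macrophages and 48.3, 46.6 and 26.5 at 14 d, and fell (-1.98 ± 0.27, adjusted p = 4.78e-05). In macrophages at 3 d edgeR called 0 of 6 (0 at an unadjusted p under 0.05, 0 called by DESeq2, median -0.21, all genes -0.01), and at 14 d 4 of 6 tested rose and 2 fell (median 1.87, all genes 0.18). In monocytes at 3 d 1 of 4 tested rose (median -0.14, all genes 0.22), and at 14 d edgeR called 0 of 4 (0 at an unadjusted p under 0.05, 0 called by DESeq2, median 0.31, all genes 0.09). Other genes known from alternative activation were read as a list of 30. In monocytes at 3 d 8 of 29 tested rose and 6 fell (median 0.21, all genes 0.22), and at 14 d 11 of 29 tested rose (median 0.81, all genes 0.09). In macrophages at 3 d 1 of 29 tested rose (median 0.49, all genes -0.01). There 9 were higher and 2 lower at an unadjusted p under 0.05, and DESeq2 called 5 higher and 1 lower. At 14 d 9 of 29 tested rose and 8 fell (median -0.01, all genes 0.18), where the other scalings gave medians of 0.43 and 0.55. Of 17 genes of classical activation, the contrasting state, in monocytes at 3 d 2 of 17 tested rose and 7 fell (median -0.68, all genes 0.22), and at 14 d 3 of 17 tested rose and 6 fell (median -0.30, all genes 0.09). In macrophages at 3 d 1 of 17 tested rose (median 0.55, all genes -0.01). There 7 were higher and 0 lower at an unadjusted p under 0.05, and DESeq2 called 5 higher and 0 lower. At 14 d 7 of 17 tested rose and 4 fell (median 0.39, all genes 0.18). Nos2, a gene of that list, was at 3.98, 3.64, 5.80 and 6.68 CPM in 3 d monocytes and 2.74, 4.41 and 3.72 CPM in 14 d macrophages, the groups with raised olfactory receptor sums, and rose there (4.11 ± 0.64, adjusted p = 0.000601) and (4.17 ± 0.59, adjusted p = 3.19e-05).

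Markers of other cells were summed beside the members, and their part in the members' results was not tested. In macrophages at 14 d, where Retnla and Ccl24 rose, the 7 eosinophil markers summed to 217, 77.1 and 273 CPM, against 12.3, 11.7, 9.83 and 10.2 in controls and 114, 17.4 and 85.9 at 3 d. At 14 d 5 of 6 tested rose (median 5.81, all genes 0.18), at 3 d edgeR called 0 of 6 (2 at an unadjusted p under 0.05, 2 called by DESeq2, median 1.76, all genes -0.01), and Alox15 was most abundant at 14 d (mean 83.5 CPM), with no marker at 0. Ear6 was most abundant in controls (mean 9.21 CPM) and at 3 d (mean 64.3 CPM). At 3 d Epx, Prg2 and Prg3 were under 1 CPM in every macrophage library. Eosinophils and Ly6Chi monocytes are CD11b+ and the alveolar macrophage gate takes CD11b- cells. Alox15 is also on the list of alternative activation and Ccr3 on that of receptors. Replicate 2 was lowest at 14 d for Retnla, Mgl2 and Ccl24, and for the eosinophil, Ly6Chi monocyte and monocyte-derived or interstitial macrophage sums. The 9 Ly6Chi monocyte markers summed to 373, 387, 416 and 348 CPM in control macrophages, 426, 488 and 602 at 3 d and 638, 530.4 and 541 at 14 d, with Csf1r most abundant. At 3 d 1 of 9 tested rose (median 1.77, all genes -0.01). There 6 were higher and 0 lower at an unadjusted p under 0.05, and DESeq2 called 5 higher and 0 lower. At 14 d 5 of 9 tested rose (median 1.57, all genes 0.18). The 12 markers of monocyte-derived or interstitial macrophages summed to 1016, 937, 907 and 1116 CPM in these controls, 1562, 885 and 1021 at 3 d and 1652, 1149 and 1876 at 14 d, with no marker of the 2 lists at 0 and Apoe most abundant at 14 d. Of these 12, at 3 d edgeR called 0 of 12 (6 at an unadjusted p under 0.05, 3 called by DESeq2, median 0.72, all genes -0.01), and at 14 d 7 of 12 tested rose and 3 fell (median 1.74, all genes 0.18). Retnla, Ccl24 and Mgl2, which rose in 14 d macrophages, were higher in control monocytes than in control macrophages. The 10 neutrophil markers summed to 1412, 1686 and 427 CPM at 14 d, 223, 198 and 153 at 3 d and 115, 233, 161 and 127 in controls. At 3 d 1 of 8 tested rose (median 1.2598, all genes -0.01). There 3 were higher and 0 lower at an unadjusted p under 0.05, and DESeq2 called 3 higher and 0 lower. At 14 d 7 of 8 tested rose and 1 fell (median 4.20, all genes 0.18), S100a9 was most abundant and Ly6g was at 0 in replicate 3. The 5 basophil and mast cell markers summed to 64.3, 23.9 and 56.2 CPM at 3 d, against 5.07, 2.13, 1.77 and 1.39 in controls and 6.05, 15.6 and 5.41 at 14 d, with Ms4a2 most abundant at 3 d and no marker at 0 at either time. Of these, at 3 d 4 of 5 tested rose (median 4.11, all genes -0.01), and at 14 d, when Retnla, Mgl2, Ccl17 and Ccl24 rose, 4 of 5 tested rose (median 1.69, all genes 0.18), with all sums of both times above all controls. The 9 dendritic cell markers, read beside Ccl17, Ccl22 and Mgl2, summed to 66.3, 36.3, 78.1 and 57.3 CPM in controls, 193, 157 and 216 at 3 d and 129.8, 246 and 55.8 at 14 d. At 3 d edgeR called 0 of 9 (5 at an unadjusted p under 0.05, 5 called by DESeq2, median 1.36, all genes -0.01), at 14 d 4 of 9 tested rose (median 0.81, all genes 0.18), with Ccr7 and Fscn1 most abundant in turn and none at 0. The 11 lymphocyte markers summed to 107, 111, 109.7 and 44.9 CPM in controls, 234, 148 and 394 at 3 d, when Ccl17 rose, and 141, 91.5 and 85.4 at 14 d, with Cd79a most abundant and none at 0. Of these, at 3 d edgeR called 0 of 10 (5 at an unadjusted p under 0.05, 3 called by DESeq2, median 0.99, all genes -0.01), and at 14 d 2 of 10 tested rose (median 0.09, all genes 0.18). At 3 d replicate 3 was highest for the lymphocyte sum and for every member except Il4ra. At 14 d replicate 2 was highest and replicate 3 lowest for Mrc1, Il4ra, Ccl17 and Ccl22. The dendritic cell, neutrophil, basophil and mast cell, and alveolar macrophage sums had the same order. The 12 alveolar macrophage markers, read beside Mrc1, summed to 9989.7, 11362, 11009.5 and 10962 CPM in controls, 12255, 11175 and 11283 at 3 d and 4034, 5612 and 3645 at 14 d. At 14 d 10 of 12 tested fell (median -1.42, all genes 0.18), at 3 d edgeR called 0 of 12 (2 at an unadjusted p under 0.05, 2 called by DESeq2, median -0.27, all genes -0.01), with Lpl most abundant at 14 d and none at 0.

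**Figure D3:**
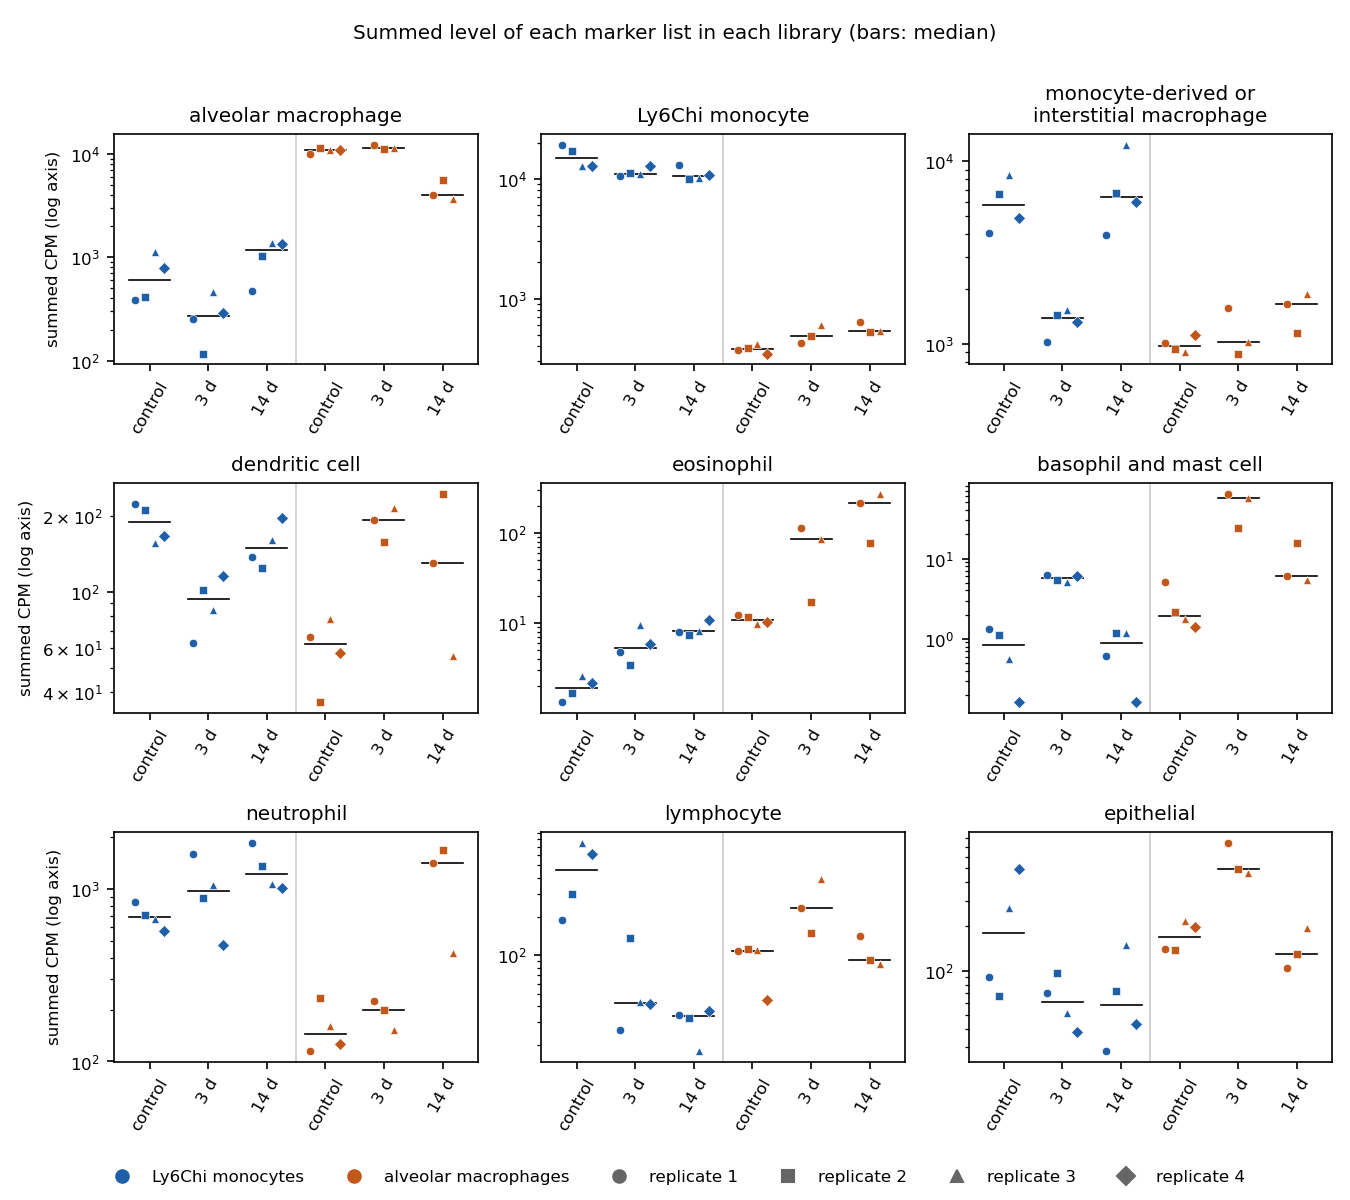
Summed CPM of each marker list in each of the 22 libraries (log axis), with the group median as a black bar. In macrophages the eosinophil and neutrophil sums at 14 d were above all controls, and the alveolar macrophage sum was below them.

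In monocytes the 9 markers of Ly6Chi monocytes themselves summed to 19165, 17133, 12832 and 12636 CPM in controls, 10612, 11039, 10991 and 12755 at 3 d and 12955, 9920.2, 10113 and 10746 at 14 d, with Csf1r, Ly6c2 and F13a1 most abundant in turn and none at 0. At 3 d 1 of 9 tested rose and 2 fell (median -0.40, all genes 0.22), and at 14 d, when Chil3, Il4ra, Ccl24 and Pdcd1lg2 rose, 1 of 9 tested rose and 3 fell (median -0.04, all genes 0.09). At 14 d Ly6c2 (-0.94 ± 0.13, adjusted p = 0.000482), Plac8 (4.00-fold lower, adjusted p = 4.18e-06) and Csf1r (-0.95 ± 0.22, adjusted p = 0.0137) fell and Vcan rose (2.37 ± 0.24, adjusted p = 3.67e-05). By the methods of the study, alveolar macrophages, eosinophils, Ly6G+ neutrophils and CD3+ lymphocytes were gated out before monocytes were sorted. The same methods write the monocyte gate as SigF+, whereas the discussion of the paper writes it as SigF-. The 12 markers of monocyte-derived or interstitial macrophages summed to 4030.1, 6617, 8450.1 and 4874 CPM in controls, 1024, 1437, 1541 and 1318 at 3 d and 3968, 6733, 12318 and 5971 at 14 d, with Apoe most abundant. At 3 d 4 of 12 tested fell (median -0.42, all genes 0.22), and at 14 d, when Chil3 and Pdcd1lg2 also rose, 7 of 12 tested rose and 3 fell (median 1.83, all genes 0.09). The eosinophil markers summed to 1.33, 1.67, 2.57 and 2.16 CPM in control monocytes, 4.83, 3.46, 9.51 and 5.93 at 3 d and 8.02, 7.40, 8.20 and 10.96 at 14 d, where Alox15 was most abundant and Epx and Prg3 were at 0 in all 4 libraries. Of these, at 3 d 2 of 3 tested rose (median 1.58, all genes 0.22), and at 14 d 1 of 3 tested rose (median 1.18, all genes 0.09). The 5 basophil and mast cell markers summed to 1.33, 1.13, 0.563 and 0.163 CPM in control monocytes, 6.22, 5.39, 5.11 and 6.02 at 3 d, when Ccl24 rose, and 0.603, 1.18, 1.17 and 0.161 at 14 d, with Prss34 most abundant at 3 d and no marker at 0 then. Of these, at 3 d 3 of 4 tested rose (median 2.86, all genes 0.22), namely Prss34, Fcer1a and Ms4a2, and at 14 d edgeR called 0 of 4 (0 at an unadjusted p under 0.05, 0 called by DESeq2, median -0.53, all genes 0.09). The 10 neutrophil markers summed to 848, 704, 669.7 and 572 CPM in controls, 1594, 889, 1066 and 475 at 3 d and 1868, 1372, 1073 and 1021 at 14 d, when Ccl24, Chil3, Pdcd1lg2 and Il4ra rose. Of these, at 3 d 3 of 10 tested rose and 1 fell (median 1.31, all genes 0.22), and at 14 d 1 of 10 tested rose (median 2.08, all genes 0.09), namely Mmp8, the most abundant, while Camp was at 0 in control replicates 1 and 2, Ly6g and Ngp in control replicate 1 and none at 0 at either time. At 14 d 5 were higher and 1 lower at an unadjusted p under 0.05, and DESeq2 called 3 higher and 0 lower. The 9 dendritic cell markers summed to 223, 212, 157 and 167 CPM in controls, 62.7, 102, 85.0 and 116 at 3 d and 137, 124, 161 and 196 at 14 d, with Dpp4 most abundant at 3 d, Flt3 at 14 d and Fscn1 at 0 in control replicates 1 and 2, and at 3 d 1 of 9 tested rose and 2 fell (median -0.37, all genes 0.22) and at 14 d 1 of 9 tested rose and 2 fell (median -0.73, all genes 0.09). The alveolar macrophage markers summed to 388, 417, 1125 and 782 CPM in control monocytes, 251, 117, 457 and 290.2 at 3 d and 469, 1037, 1365 and 1337 at 14 d, with Lpl most abundant (mean 688 CPM at 14 d) and none at 0. Of these markers, at 3 d 8 of 12 tested fell (median -2.07, all genes 0.22) and at 14 d 1 of 12 tested rose and 2 fell (median -1.20, all genes 0.09), Lpl being the 1 that rose. Control replicates 3 and 4 were the highest controls for that sum, for Retnla, Mrc1 and Ccl17, and for the eosinophil, lymphocyte and epithelial sums. The 11 lymphocyte markers summed to 188, 298, 754 and 617 CPM in controls, 26.1, 136, 43.5 and 41.5 at 3 d and 34.2, 32.6, 17.8 and 37.0 at 14 d, with Nkg7 most abundant. Of these, at 3 d 7 of 11 tested fell (median -1.35, all genes 0.22) and at 14 d 7 of 11 tested fell (median -1.70, all genes 0.09). The 7 epithelial markers summed to 90.9, 67.5, 268 and 494 CPM in control monocytes, 70.6, 95.8, 51.5 and 37.9 at 3 d and 28.1, 72.4, 150.2 and 43.4 at 14 d, with Scgb1a1 most abundant and Lamp3 at 0 in control replicate 2 and 14 d replicate 1. Of these, in monocytes at 3 d 2 of 6 tested rose and 2 fell (median -0.56, all genes 0.22), and at 14 d 1 of 6 tested rose and 2 fell (median -1.41, all genes 0.09). They summed to 141, 139, 218 and 198 CPM in control macrophages, 749, 495 and 466 at 3 d, where Scgb1a1 was most abundant, and 104, 129 and 196 at 14 d, and at 3 d 1 of 7 tested rose and 1 fell (median 0.34, all genes -0.01) and at 14 d 2 of 7 tested rose and 3 fell (median 0.57, all genes 0.18).

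For each of the 8 members called against control, the 2 genes nearest in pattern were sought among 12216 candidates, by the root mean square difference of log2 CPM over the 22 libraries, each gene centred within its cell type. Ccl24 was nearest to Rnase2a (Ear11, 1.40) and Hbegf (1.53). Retnla was nearest to Alox15 (1.25) and C3ar1 (1.38). Chil3 was nearest to Rbpj (0.273) and Chil4 (0.295), and Mrc1 to Olr1 (0.436) and Bcl2a1b (0.492). Ccl17 had Sdc4 (1.01) and AA467197 (1.06), and Pdcd1lg2 had Il1rn (0.521) and Myo1e (0.545). Il4ra lay nearest to Grhpr (0.250) and Sbno2 (0.255), and Mgl2 to Matk (0.857) and Krt8 (0.922).

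Stat6 is known to bind TTCNNNNGAA, and other Stat factors TTCNNNGAA, where N is any base, so promoter windows of the members were searched for both. RefSeq windows of GRCm38.p6, from 250 bases before to 50 after the RefSeq start of the gene, were on hand for 8 of 9 members, all but Ccl24. Both motifs are palindromes, so 1 scan covers both strands. TTCNNNNGAA occurred in 3 of the 8 (Retnla, Ccl17 and Pdcd1lg2) and in 6.94% of all 32817 windows. TTCNNNGAA occurred in 2 (Chil3 and Ccl17) and in 8.29% of all windows. Of the 4 members with a match, all rose at 14 d in monocytes or macrophages, and of the 4 without one (Mrc1, Il4ra, Mgl2 and Ccl22), Il4ra and Mgl2 did too. The windows of the 4 with a match are printed to show its place, with the matches in capitals, written 5′ to 3′ along the gene. Matches start at -145 in Retnla, -154 and -99 in Ccl17, -82 in Pdcd1lg2 and -172 in Chil3, counted from that start, and such a match describes letters and not binding. That start is the gene start printed above for Ccl17, Pdcd1lg2 and Chil3 and lies 58 bases after it for Retnla, whose match begins 87 bases before the printed start. The windows lie at chr16:48842359-48842658 (plus strand, Retnla), chr8:94810203-94810502 (plus, Ccl17), chr19:29410669-29410968 (plus, Pdcd1lg2) and chr3:106167515-106167814 (minus, Chil3).
Retnla: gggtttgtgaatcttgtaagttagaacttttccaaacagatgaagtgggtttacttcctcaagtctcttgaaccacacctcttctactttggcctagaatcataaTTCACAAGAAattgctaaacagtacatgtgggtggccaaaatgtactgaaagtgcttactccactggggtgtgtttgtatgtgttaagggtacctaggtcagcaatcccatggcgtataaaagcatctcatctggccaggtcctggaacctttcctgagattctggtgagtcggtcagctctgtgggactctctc
Ccl17: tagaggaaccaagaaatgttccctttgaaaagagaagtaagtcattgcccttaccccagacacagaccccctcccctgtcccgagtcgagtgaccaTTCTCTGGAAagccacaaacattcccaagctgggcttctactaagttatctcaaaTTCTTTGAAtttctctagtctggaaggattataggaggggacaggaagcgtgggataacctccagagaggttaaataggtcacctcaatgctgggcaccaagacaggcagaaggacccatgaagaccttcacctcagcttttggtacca
Pdcd1lg2: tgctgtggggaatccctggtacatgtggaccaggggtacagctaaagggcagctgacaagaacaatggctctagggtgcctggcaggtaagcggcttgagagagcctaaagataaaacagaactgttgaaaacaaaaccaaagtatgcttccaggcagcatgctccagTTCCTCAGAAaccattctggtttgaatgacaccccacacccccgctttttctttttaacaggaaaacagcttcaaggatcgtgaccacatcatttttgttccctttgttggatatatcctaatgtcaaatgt
Chil3: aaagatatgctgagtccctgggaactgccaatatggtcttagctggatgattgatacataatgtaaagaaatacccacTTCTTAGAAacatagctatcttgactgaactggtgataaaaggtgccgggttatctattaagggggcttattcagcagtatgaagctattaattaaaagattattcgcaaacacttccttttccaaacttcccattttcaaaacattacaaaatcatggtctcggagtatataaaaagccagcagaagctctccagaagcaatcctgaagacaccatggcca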

How the data were processed

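RNA was measured in 12 samples of sorted Ly6Chi monocytes and 10 of alveolar macrophages. Per the submitters' notes, the authors aligned reads to GRCm38/mm10 with STAR (2.7.2c or 2.7.3a) and made the deposited gene counts with featureCounts 1.6.3, which were used as they are. The members and lists were chosen with earlier results of these data known, and 1 member and 1 list are not reported here. From the counts, edgeR 4.0.16 in R 4.3.3 (filterByExpr, TMM, robust quasi-likelihood F test, Benjamini-Hochberg adjustment over all genes tested) compared the groups within each cell type, and, over genes in both tables, the cell types. The standard error is the log2 fold change divided by the square root of F. Genes named beside the members were the 2 nearest in pattern per member and genes of the lists, and the list genes given with single values were picked after their values were seen. Rnase2a is the current symbol of Ear11. Alternatives were DESeq2 1.42.0, library size scaling, TMM from well-expressed genes (mean log2 CPM over 5), no filter, a stricter filter (mean log2 CPM above 1), the replicate block, adjusted p alone, omission of each library and, added after the data had been seen, a fit of only the groups compared. Scripts were tested on simulated data. Figures used Python 3.11.15 and matplotlib 3.10.9.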

Additional observations from a re-analysis of the deposited data

Results flagged for a closer look

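In 5 of 80 groups of 4 libraries checked, 1 library lay far from the other 3, where chance sets apart about 1 in 20 groups. Il4ra in 14 d monocytes was 453 CPM in replicate 1 and 288 to 311 CPM in the others. The summed lymphocyte markers were 17.8 CPM in 14 d monocyte replicate 3, against 32.6 to 37.0 CPM, and 44.9 CPM in control macrophage replicate 4, against 107 to 111 CPM. Total counts were 27013525 in 14 d monocyte replicate 4, against 21131493 to 21735791. Genes with a count numbered 40119 in 3 d monocyte replicate 2, against 41039 to 41134.

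For 4 members the change at 14 d differed between macrophages and monocytes by the test of the difference itself (edgeR): Mrc1 by -3.66 (adjusted p = 0.00213), Pdcd1lg2 by -3.52 (adjusted p = 0.00296), Chil3 by -1.31 (adjusted p = 0.00982) and Il4ra by -1.30 (adjusted p = 0.00586). The calls of Chil3 and Il4ra were lost with DESeq2, both other scalings and the stricter filter.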

How the results depend on the processing

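Each of the 9 members was compared in 9 ways, which gives 81 values, 28 of them called by edgeR. Of those 28, 17 were called under every alternative, and of the 53 not called 32 were called under none. Over all alternatives 68 of 1832 values lost a call, 74 gained one and 1690 did neither, and 0 called values changed sign, while 87 values, none of them called, did so in 19 pairs not called by edgeR.

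The number of members called in monocytes at 3 d, 1, was 3 with DESeq2, with library size scaling and with TMM from well-expressed genes, and 2 with no filter. At 14 d, 4 with edgeR (7 of 9 at an unadjusted p under 0.05), it was 7 with DESeq2 and 0 with no filter. Between 14 d and 3 d in monocytes, 3, it was 1 with library size scaling, with TMM from well-expressed genes and with the stricter filter. For macrophages at 3 d the 1 member of edgeR (4 of 9 at an unadjusted p under 0.05) became 4 with DESeq2, 0 with no filter, 2 with the stricter filter and 2 with only the groups compared, a fit added after seeing the data. For the difference between cell types at 3 d, 0 with edgeR (2 of 9 at an unadjusted p under 0.05), it was 1 with DESeq2. Omission of single libraries gave 1 to 3 members in monocytes at 3 d, 1 to 6 at 14 d and 2 to 4 between them. It gave 0 to 3 in macrophages at 3 d, 5 to 6 at 14 d and 2 to 4 between them, 0 to 1 and 4 to 5 for the differences at 3 d and 14 d, and 6 to 7 between the control groups. The cause of these shifts was not tested. Shares of all genes called are not given for DESeq2 or the other scalings in monocytes, so those counts have no background.

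Over all genes, no filter gave 19592 calls in monocytes at 3 d (11438 with it) and 16664 between 14 d and 3 d (10395). The stricter filter gave 1468 and 1557 there, 5018 in macrophages at 14 d (13051) and 4236 between 14 d and 3 d (11806), 1211 and 3736 for the differences at 3 d (4995) and 14 d (9829), and 7586 between control groups (11787). For macrophages at 3 d (267) DESeq2 gave 763 and the replicate block 133. Omissions gave 9758 to 13836, 1158 to 1904 (1914 with all libraries) and 8553 to 12753 in monocytes at 3 d, 14 d and between them. They gave 77 to 1476, 12400 to 17262 and 11421 to 14092 in macrophages, 2272 to 5370 and 7879 to 10601 for the differences, and 11118 to 11859 between the control groups. Calls fell to 1158 without monocyte 14 d replicate 3, and in macrophages at 3 d to 92, 146, 101, 77 and 111 without control replicates 1, 3 and 4 and 3 d replicates 1 and 3, and rose to 1476 without 3 d replicate 2. For the difference at 3 d they fell to 3136, 3033, 2474 and 2272 without macrophage control replicates 1 and 2 and 3 d replicates 1 and 3.

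With library size scaling and TMM from well-expressed genes the median log2 fold change of all genes went from 0.09 to 0.19 and 0.15 (37.6% of calls higher, then 48.6% and 43.4%) in monocytes at 14 d and from -0.26 to -0.64 and -0.72 (25.8% of calls higher, then 5.77% and 4.32%) between 14 d and 3 d. In macrophages between 14 d and 3 d it went from 0.16 to 0.59 and 0.65 (64.5% of calls higher, then 87.5% and 89.5%). For the differences it went from -0.63 to -0.91 and -0.93 (18.7% of calls higher, then 7.19% and 6.77%) at 3 d and from 0.48 to 1.16 and 1.27 (45.9% of calls higher, then 81.5% and 86.0%) at 14 d, and between control groups from 0.05 to 0.47 and 0.38 (55.5% of calls higher, then 71.2% and 67.9%).

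Labels number replicates alike across groups, but in no pair of groups did all libraries of the same number correlate above 0.1 over genes (0.0892 to 0.521 between control and 14 d monocytes, where the own number was the most alike for 3 of 4). With the replicate block, Il4ra in monocytes at 14 d (adjusted p = 0.0982) and Ccl17 in macrophages at 3 d (adjusted p = 0.210) lost their calls. The members called between 14 d and 3 d in monocytes became 5 (3 without the block). Retnla in monocytes gained a call at 14 d (adjusted p = 0.0384) and between the times (adjusted p = 0.0342), Pdcd1lg2 between the times (adjusted p = 0.0398), and Mgl2 in macrophages at 3 d (adjusted p = 0.00321) and between the times (adjusted p = 0.00153).

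The groups hold 3 or 4 libraries, and an omission leaves 2 in a macrophage group of 3. With 4610720 to 6838893 counts in 14 d macrophages, members near the floor, Retnla and Ccl24 in control macrophages above all, have fold changes that depend on a few counts. Male sex and 14 d, the cells in a gate and RNA per cell, and cell type and count table cannot be separated here.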
